A study of Mus musculus with 8 samples.

Results

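The unfolded protein response (UPR) is the way a cell answers the build-up of misfolded protein in the endoplasmic reticulum (ER). The genes described here encode its sensors and the factors and proteases that carry their signal, which are Ern1, Xbp1, Atf6, Atf6b, Eif2ak3, Mbtps1 and Mbtps2. These 7 genes were taken by symbol from a list, drawn up with earlier results of these data known, out of 23337 gene symbols counted in liver RNA, and all 7 passed the filter on low counts that left 14328 genes for testing.

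RNA was sequenced from the liver of C57BL/6 mice aged 12 weeks that were WT or HRD1Alb, the latter carrying floxed HRD1 alleles cut by Cre under the albumin promoter. HRD1, listed under its symbol Syvn1, is a ubiquitin ligase of ER-associated degradation, and its deletion by this Cre is aimed at hepatocytes, so that other liver cells keep the gene. The genotype is labelled Hrd1-/- in the sample records. One set of mice was fasted overnight and the other was given food again for 4 h after such a fast, which gave 4 groups of 2 samples (fasted WT, fasted HRD1Alb, refed WT and refed HRD1Alb) and 8 samples in all. The labels do not say whether the 2 samples of a group came from separate animals, so the p-values measure the spread between these samples, which may be technical. Levels are CPM, counts scaled to a common library size after TMM normalization, and a call means an adjusted p under 0.05 by edgeR's quasi-likelihood test with Benjamini-Hochberg adjustment over all 14328 genes.

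Each sensor spans the ER membrane. IRE1α, the product of Ern1, is a kinase and endoribonuclease that cuts Xbp1 mRNA, and the rejoined message encodes XBP1s, a transcription factor for secretory pathway and degradation genes. ATF6 and its relative ATF6β, encoded by Atf6 and Atf6b, travel to the Golgi under stress and are cut there by the site-1 and site-2 proteases, encoded by Mbtps1 and Mbtps2, which release a transcription factor for ER chaperone genes. PERK, encoded by Eif2ak3, phosphorylates the translation factor eIF2α, which lowers translation in general while favouring that of ATF4. In the liver these branches are known for their part in secretory load, lipid synthesis and the response to feeding, and XBP1s is a known activator of HRD1 transcription. Sensor activity is set by dimerization, phosphorylation, cleavage and splicing, and mRNA counts measure none of these.

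The cut made by IRE1α removes a stretch of exon 4 of Xbp1. A part of the exon is shown here because the deposited counts, given per gene, cannot tell the spliced from the unspliced message. In the transcript Xbp1-201, the part shown lies within exon 4 at chr11:5524249-5524334 on the plus strand of GRCm38. It holds the removed bases and flanking bases on each side, and the ends of the exon are not given. The capitals mark the 26 bases that are removed, assembled from the GENCODE annotation and its transcript sequence.

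Xbp1 exon 4: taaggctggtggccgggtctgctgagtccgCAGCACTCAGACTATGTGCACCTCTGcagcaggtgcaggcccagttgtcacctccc

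Removal of these bases shifts the reading frame, so that the encoded protein grows from 267 to 371 residues. The removed stretch is 1.22% of the bases of this transcript, and every Xbp1 value below is the sum of both forms.

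The libraries differed in ways that touch these genes. Total counts ranged from 40210576 to 49117080 per sample. The 2 refed HRD1Alb replicates were less alike than those of any other group: Spearman's rho between them across genes was 0.955, against 0.990 to 0.995 in the other groups, and 3204 genes differed at least 2-fold between the 2 samples, against 424 to 1141. Replicate 2 was the farther one from the samples of the other 3 groups, with a rho of 0.906 to 0.932, against 0.951 to 0.97 for replicate 1. Its difference from the mean of those samples went with exon length across genes (rho -0.497), more than that of replicate 1 (rho -0.109). The difference of replicate 2 from replicate 1 also went with exon length, with a median of 0.96 on the log2 scale for genes under 1 kb of exon and -0.65 for genes over 8 kb. The targeted gene checked the labels in the fasted groups, where Syvn1 stood at 111 and 99.8 CPM in WT and 32.6 and 31.5 CPM in HRD1Alb liver. It did not separate the refed groups, at 637 and 305 CPM in WT and 453 and 132 CPM in the libraries labelled HRD1Alb, and the log2 fold changes of -1.72 and -0.69 did not pass the test (adjusted p = 0.170 and 0.391, edgeR). The labels do not give the floxed exons, so reads from a remaining part of the transcript cannot be told apart from reads of an intact gene. Markers of hepatocytes summed to between 120208 and 159477 CPM in WT and between 70047 and 110746 CPM in HRD1Alb samples, while macrophage markers summed to between 65.8 and 76.1 CPM in WT and between 154 and 309 CPM in HRD1Alb samples. Stellate cell markers ranged from 154 to 326 CPM in WT and from 316 to 420 CPM in HRD1Alb samples, endothelial markers from 83.7 to 107 CPM, cholangiocyte markers from 29.1 to 68.3 CPM and plasma and B cell markers from 3.02 to 7.87 CPM over the 8 samples. The 5 pancreatic acinar markers were all at 0 in 5 samples, and 4 of them were at 0 in each of the other 3. In bulk liver, fewer cells of a type and less RNA per cell cannot be told apart, and the part of the other cell types in the results below was not tested.

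**Figure D1:**
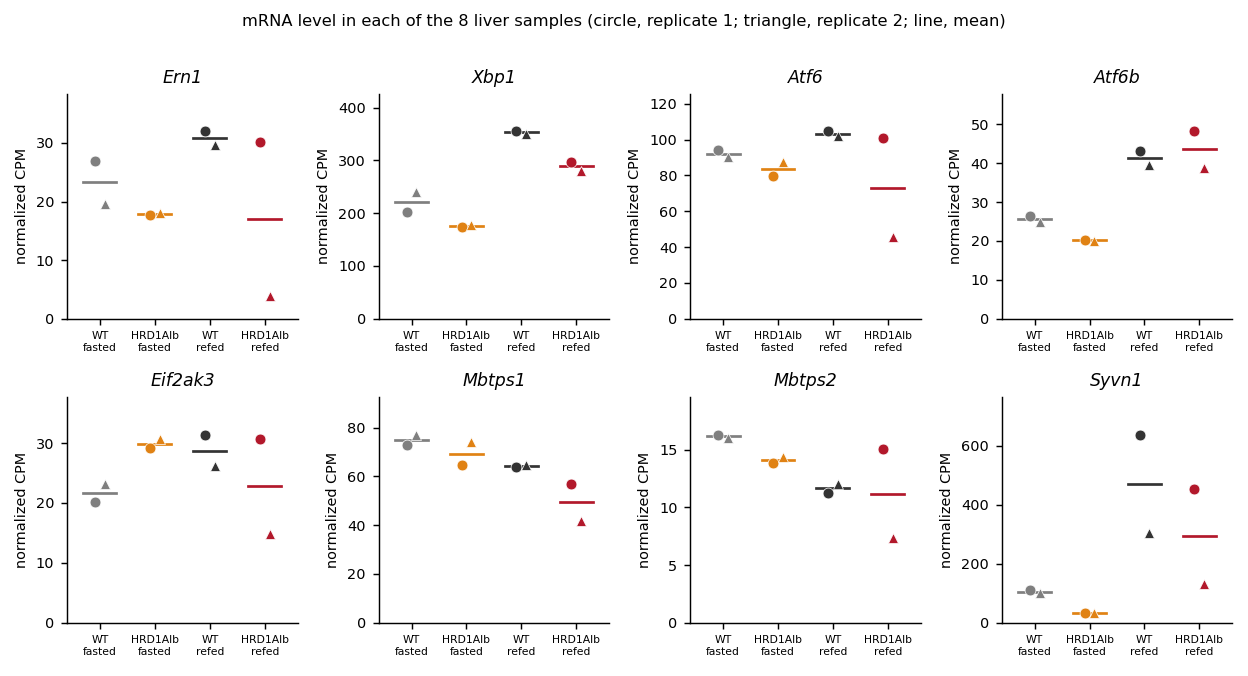
Normalized CPM (vertical axes from 0) of the 7 genes and of Syvn1 in the 4 groups, with a circle for replicate 1, a triangle for replicate 2 and a line for the mean of the 2 samples. Xbp1 and Atf6b are high in all 4 refed samples, and the triangle of refed HRD1Alb liver is the lowest point of the panel for Ern1, Atf6, Eif2ak3, Mbtps1 and Mbtps2.

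The order of the members was set by Xbp1. Per kilobase of exon, Xbp1 mRNA stood at 68.2 CPM per kb on average in fasted WT liver, far above Atf6 at 9.98, Atf6b at 9.29, Mbtps1 at 7.12, Eif2ak3 at 3.59, Ern1 at 2.85 and Mbtps2 at 1.60 CPM per kb. In this group no 2 neighbours in the order overlapped between samples, and the same order without overlap held in fasted HRD1Alb liver. In refed WT liver Atf6b, at 15.02 CPM per kb, stood above Atf6, at 11.2 CPM per kb, again without overlap. In refed HRD1Alb liver Xbp1 (88.9 CPM per kb) and Atf6b (15.8) kept the first 2 places, and all neighbours from Atf6 down to Mbtps2 overlapped. The place of the middle genes depends on the length used: per kb of the longest transcript, Mbtps1 (11.1) stood above Atf6b (9.98) in fasted WT liver, and Mbtps2 (3.37) and Ern1 (3.35) overlapped.

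Ern1 lies on chromosome 11 from 106394650 to 106487852 on the minus strand (GRCm38). Its mRNA stood at 27.0 and 19.5 CPM in fasted WT liver, 17.7 and 18.0 CPM in fasted HRD1Alb liver, 32.0 and 29.6 CPM in refed WT liver, and 30.2 and 3.88 CPM in refed HRD1Alb liver (replicates 1 and 2 in each group). Both fasted HRD1Alb samples were below both fasted WT samples, both refed WT samples were above the fasted ones, and of the refed HRD1Alb samples replicate 1 lay within the refed WT range and replicate 2 was the lowest of all 8. The value of 3.88 CPM came from 177 counts, so it is not at the limit of detection. It was 2.95 lower than its replicate on the log2 scale, a gap reached by 2.27% of the 2384 genes with over 8 kb of exon, among which the median gap was -0.65. None of the 4 comparisons passed the test with all 8 samples, with log2 fold changes from -0.85 to 0.41 and standard errors of 0.73 to 0.74. When refed HRD1Alb replicate 2 was left out, the log2 fold change with refeeding in HRD1Alb liver was 0.76 (SE 0.18, adjusted p = 0.0252, edgeR), against -0.06 (SE 0.73, adjusted p = 0.962) with it, and that between genotypes in refed liver was -0.04 (SE 0.18, adjusted p = 0.901), against -0.85 (SE 0.74, adjusted p = 0.426).

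Xbp1, on the same chromosome from 5520659 to 5525893 on the plus strand, was the most abundant member. Its mRNA stood at 202 and 241 CPM in fasted WT liver, 174 and 178 CPM in fasted HRD1Alb liver, 356 and 351 CPM in refed WT liver, and 297 and 280 CPM in refed HRD1Alb liver. All 4 refed samples were above all 4 fasted samples, and within each feeding state both HRD1Alb samples were below both WT samples. With refeeding, Xbp1 rose by 0.71 on the log2 scale in HRD1Alb liver (SE 0.15, adjusted p = 0.0316, edgeR), a fold of 1.64. In WT liver the log2 fold change was 0.67 (SE 0.15), a fold of 1.59, and it did not pass the test (adjusted p = 0.0769). The differences between genotypes, -0.33 (SE 0.15) in fasted and -0.29 (SE 0.15) in refed liver, did not pass the test either (adjusted p = 0.307 and 0.218). Xbp1 has 3.25 kb of exon, and the gap between the refed HRD1Alb samples was -0.08 on the log2 scale.

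Atf6, on chromosome 1 from 170704674 to 170867771 on the minus strand, encodes the cleaved sensor itself. Its mRNA stood at 94.0 and 90.2 CPM in fasted WT liver, 79.7 and 87.4 CPM in fasted HRD1Alb liver, 105 and 102 CPM in refed WT liver, and 101 and 45.8 CPM in refed HRD1Alb liver. Except for the last sample, all values lay within a 1.31-fold range. The log2 fold changes were -0.14 and -0.50 between genotypes in fasted and refed liver and 0.17 and -0.19 with refeeding in WT and HRD1Alb liver, with standard errors of 0.32, and none passed the test (adjusted p from 0.306 to 0.875, edgeR). When that sample was left out the value in refed liver was -0.04 (SE 0.11) and that with refeeding in HRD1Alb liver was 0.27 (SE 0.11), and neither passed the test (adjusted p = 0.800 and 0.128).

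Atf6b, on chromosome 17 from 34647146 to 34655074 on the plus strand, encodes the related factor ATF6β, which is cut in the same way. Its mRNA stood at 26.5 and 24.7 CPM in fasted WT liver, 20.2 and 20.1 CPM in fasted HRD1Alb liver, 43.2 and 39.6 CPM in refed WT liver, and 48.2 and 38.8 CPM in refed HRD1Alb liver. All 4 refed samples were above all 4 fasted samples, the fasted genotypes did not overlap, and the refed genotypes did. With refeeding, Atf6b rose by 1.11 on the log2 scale in HRD1Alb liver (SE 0.17, adjusted p = 0.0119, edgeR), a fold of 2.16. In WT liver the log2 fold change of 0.69 (SE 0.16), a fold of 1.62, did not pass the test (adjusted p = 0.0849). The difference between these fold changes, 0.42 (SE 0.23), did not pass the interaction test (adjusted p = 0.614). Between genotypes the log2 fold change was -0.35 (SE 0.16, adjusted p = 0.320) in fasted and 0.07 (SE 0.16, adjusted p = 0.769) in refed liver.

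The proteases that cut both factors were lower in both refed than in both fasted WT samples. Mbtps1, on chromosome 8 from 119508156 to 119558735 on the minus strand, stood at 73.0 and 77.1 CPM in fasted WT liver, 64.8 and 74.0 CPM in fasted HRD1Alb liver, 64.0 and 64.8 CPM in refed WT liver, and 57.0 and 41.8 CPM in refed HRD1Alb liver. In both genotypes the refed samples were below the fasted samples, and the log2 fold changes of -0.22 (SE 0.19) in WT and -0.49 (SE 0.19) in HRD1Alb liver did not pass the test (adjusted p = 0.651 and 0.125, edgeR). Mbtps2, on the X chromosome from 157535371 to 157598715 on the minus strand, stood at 16.3 and 16.1 CPM in fasted WT liver, 13.9 and 14.4 CPM in fasted HRD1Alb liver, 11.2 and 12.1 CPM in refed WT liver, and 15.1 and 7.34 CPM in refed HRD1Alb liver. The refed WT samples were below the fasted ones, and of the refed HRD1Alb samples replicate 1 lay between the fasted groups and replicate 2 was the lowest of all 8. The change with refeeding in WT liver was -0.47 on the log2 scale (SE 0.31, adjusted p = 0.532). With that replicate 2 left out it was again -0.47 and passed the test (SE 0.10, adjusted p = 0.0200), as the fit shares the spread between groups. Exons of Mbtps2 overlap those of Yy2 on the same strand, so its value is uncertain where the counting could assign shared reads.

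Eif2ak3, on chromosome 6 from 70844515 to 70905245 on the plus strand, was the only member that was higher in fasted HRD1Alb than in fasted WT liver in both samples. Its mRNA stood at 20.1 and 23.2 CPM in fasted WT liver, 29.2 and 30.7 CPM in fasted HRD1Alb liver, 31.4 and 26.1 CPM in refed WT liver, and 30.7 and 14.8 CPM in refed HRD1Alb liver. Both fasted WT samples were below the other fasted group and below the refed WT group, while the refed HRD1Alb samples overlapped both. The log2 fold change between genotypes in fasted liver was 0.47 (SE 0.32), a fold of 1.38, and did not pass the test with all 8 samples (adjusted p = 0.497, edgeR). With refed HRD1Alb replicate 2 left out it was 0.46 (SE 0.12) and passed it (adjusted p = 0.0359). In refed liver the value was -0.34 (SE 0.32) with all samples and 0.09 (SE 0.15) without that replicate, and neither passed the test (adjusted p = 0.468 and 0.676). Its exons overlap the antisense gene Gm43292, whose reads cannot be told apart from those of Eif2ak3 if strand was not used in counting.

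Refed HRD1Alb replicate 2 was thus the lowest of the 8 samples for 5 of the 7 members, Ern1, Atf6, Eif2ak3, Mbtps1 and Mbtps2, as it was for 30.9% of all tested genes. These are the 5 members with over 6 kb of exon, and the other 2, Atf6b with 2.76 kb and Xbp1 with 3.25 kb, lay within the range of the other samples. Compared with genes of like length, the gap between the refed HRD1Alb replicates was near the median for Mbtps1, at -0.45 against -0.65 over 8 kb. For Atf6, at -1.13, and Mbtps2, at -1.03, a gap as low was found in 22.3% and 27.0% of that class. For Eif2ak3, at -1.05 against a median of -0.27 for genes of 4 to 8 kb, it was found in 12.9%, and for Ern1 the share was the 2.27% given above.

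**Figure D2:**
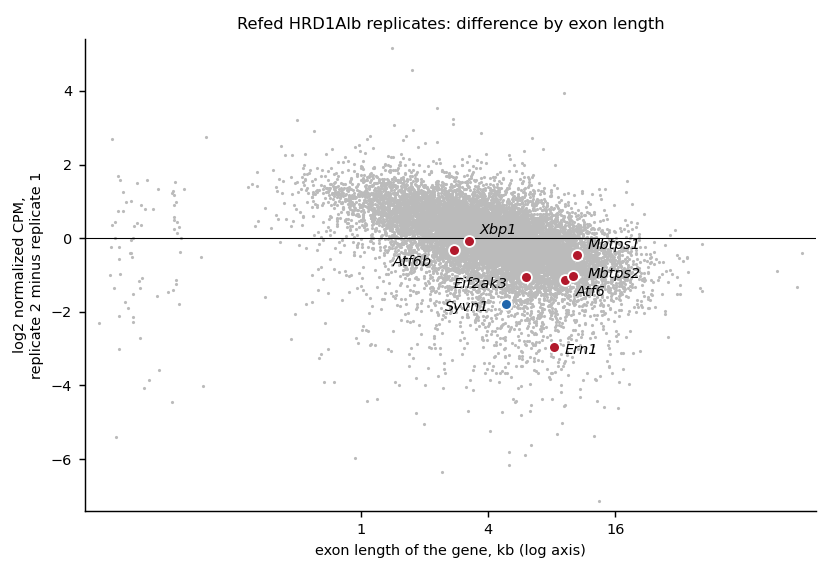
Log2 difference in normalized CPM between refed HRD1Alb replicates 2 and 1 (vertical axis) against the exon length of each tested gene in kb (log axis), with all genes in grey, the 7 members in red and Syvn1 in blue. The cloud falls with length, Xbp1 and Atf6b sit near 0, and Ern1 lies at -2.95, below the other members.

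The first question of the design is what HRD1 deletion does in fasted liver. Of the 7 members, Eif2ak3 was higher and Ern1, Xbp1, Atf6, Atf6b and Mbtps2 were lower in both HRD1Alb samples than in both WT samples, while Mbtps1 overlapped. Such separation was common, at 64.9% of all tested genes. With all 8 samples 0 members passed edgeR's test, against 1.35% of all genes. Likewise 0 had an unadjusted p under 0.05 (18.4% of all genes), and DESeq2 (7.64%), limma-trend (1.81%) and limma-voom (19.9%) called 0 each. The median log2 fold change of the members was -0.19, against -0.02 over all genes. Without refed HRD1Alb replicate 2, edgeR called 2 members, Eif2ak3 higher and Atf6b lower (log2 fold change -0.35, SE 0.09, adjusted p = 0.0322), against 21.3% of all genes. The same 2 were called without replicate 1 of that group, against 21.7% of all genes.

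In refed liver no member was higher in both HRD1Alb samples, and Xbp1, Atf6 and Mbtps1 were lower in both, against 60.8% of all genes separated. With all samples 0 members passed edgeR's test, against 11.9% of all genes. Likewise 0 had an unadjusted p under 0.05 (33.3% of all genes), and DESeq2 (22.3%), limma-trend (12.1%) and limma-voom (1.06%) called 0 each. The 2 refed HRD1Alb libraries decide this comparison. Without replicate 2, 0 members were called, against 23.7% of all genes, and without replicate 1, 5 were called lower, against 27.8% of all genes in that direction, namely Ern1, Atf6, Eif2ak3, Mbtps1 and Mbtps2, with log2 fold changes from -2.996 for Ern1 to -0.63 for Mbtps1. In such a fit the lone remaining sample is assumed to vary like the other groups.

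The other question is what refeeding does in each genotype. In WT liver all 7 members separated by feeding state, with Ern1, Xbp1, Atf6, Atf6b and Eif2ak3 higher and Mbtps1 and Mbtps2 lower after refeeding, against 60.4% of all genes. With all samples 0 members passed edgeR's test, against 2.61% of all genes. Xbp1 and Atf6b had an unadjusted p under 0.05 (16.3% of all genes), DESeq2 called 2 members (7.58%), limma-trend 0 (2.83%) and limma-voom with sample weights 3 (16.3%). Without refed HRD1Alb replicate 2, edgeR called 3 members, Xbp1 (log2 fold change 0.67, SE 0.11, adjusted p = 0.00766) and Atf6b (0.69, SE 0.09, adjusted p = 0.00314) higher and Mbtps2 lower, against 17% of all genes. Eif2ak3 stood at 0.41 (SE 0.12, adjusted p = 0.0599) and Ern1 at 0.41 (SE 0.15, adjusted p = 0.109) in the same fit.

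In HRD1Alb liver Xbp1 and Atf6b were higher and Mbtps1 was lower in both refed samples, against 58.7% of all genes separated. Xbp1 and Atf6b rose by edgeR's test and no member fell, which is 2 of 7 against 5.43% of all genes called higher and 10.5% called in either direction. At an unadjusted p under 0.05 there were 3 members (31.7% of all genes), DESeq2 called 2 (20.4%), limma-trend 2 (10.1%) and limma-voom 0 (0.9%). Fits of the 4 samples of a comparison alone called 0 members here, where they called 0 of all genes. With refeeding in WT liver they called 3 members and 1882 of all genes. These fits and limma-voom put more calls in WT liver and the edgeR fit of all samples more in HRD1Alb liver, over all genes as among the members. Without refed HRD1Alb replicate 2 the calls were Xbp1 (0.75, SE 0.13, adjusted p = 0.00854), Atf6b (1.26, SE 0.10, adjusted p = 0.000905) and Ern1, all higher, against 10.7% of all genes called higher and 19.7% called in either direction. Without replicate 1 all 7 members were called, Xbp1 and Atf6b higher and the other 5 lower, against 51.4% of all genes. Both calls of the full fit were lost without either fasted HRD1Alb replicate, with log2 fold changes of 0.69 and 0.73 for Xbp1 and 1.11 in both fits for Atf6b. That of Xbp1 was also lost without any single WT sample (log2 fold change 0.71 to 0.72). In each of these fits most calls over all genes were lost as well. The comparisons in refed liver and those of refeeding share samples and are not independent. For the interaction of genotype with feeding 0 members passed edgeR's test, with 0 at an unadjusted p under 0.05 and 0 by DESeq2, limma-trend and limma-voom. Over all genes 0% passed it by edgeR, limma-trend and limma-voom, with 8.44% at an unadjusted p under 0.05 and 0.733% called by DESeq2. Without refed HRD1Alb replicate 1, Ern1, Atf6, Eif2ak3 and Mbtps1 were called lower in the interaction, against 18% of all genes, and without replicate 2, 0 members were, against 0.69% of all genes in either direction.

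**Figure D3:**
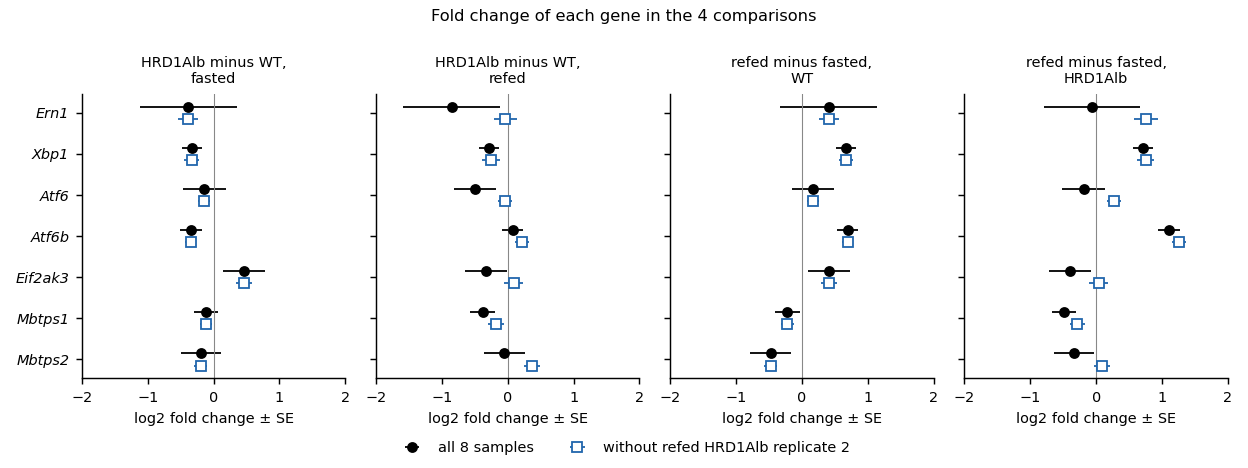
Log2 fold change with its standard error for each of the 7 members in the 4 comparisons, from all 8 samples (filled circles) and without refed HRD1Alb replicate 2 (open squares). Leaving out that sample moves Ern1, Atf6, Eif2ak3, Mbtps1 and Mbtps2 to the right in the comparisons that use refed HRD1Alb liver, while Xbp1 and Atf6b stay right of 0 with refeeding in both genotypes.

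The known targets of each branch were read out of the same fits, from lists of genes known as targets. Of 12 ATF6 targets, mostly ER chaperones and folding enzymes, 7 rose with refeeding in WT liver, against 1.2% of all genes, and 10 in HRD1Alb liver, against 5.43%, and none fell. Their median log2 fold changes were 1.37 and 2.38, against 0.00 and 0.02 over all genes. All 12 were higher in both refed samples in either genotype, against 30.8% of all genes in WT and 29.2% in HRD1Alb liver. Hspa5, which encodes the chaperone BiP that holds the sensors inactive, stood at 983 and 1022 CPM in fasted WT liver, 1311 and 1022 CPM in fasted HRD1Alb liver, 4892 and 2759 CPM in refed WT liver, and 8635 and 6171 CPM in refed HRD1Alb liver. The refed samples did not overlap with the fasted ones. The refed genotypes did not overlap with each other, as was so for 60.8% of all genes. The log2 fold change between the refed genotypes, 0.95 (SE 0.31), did not pass the test (adjusted p = 0.0848, edgeR). Hspa5 rose by 1.93 on the log2 scale in WT liver (SE 0.32, adjusted p = 0.0338, edgeR) and by 2.67 in HRD1Alb liver (SE 0.33, adjusted p = 0.00752).

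The other named ATF6 targets rose in both genotypes as well. Manf, which encodes a secreted factor held in the ER, stood at 66.8 and 77.3 CPM in fasted WT, 76.6 and 60.5 CPM in fasted HRD1Alb, 487 and 322 CPM in refed WT, and 777 and 951 CPM in refed HRD1Alb liver, and rose with refeeding (log2 fold change 2.49, SE 0.26, and 3.66, SE 0.27; adjusted p = 0.0120 and 0.00346, edgeR). Creld2 went from 52.4 and 42.9 to 406 and 160 CPM in WT liver and from 41.7 and 32.7 to 888 and 739 CPM in HRD1Alb liver (log2 fold change 2.57, adjusted p = 0.0335, and 4.45, adjusted p = 0.00418). Sdf2l1, Calr, Pdia6 and Dnajb11 rose by 0.99 to 2.72 on the log2 scale in WT and by 1.58 to 3.34 in HRD1Alb liver. In refed liver Pdia6, a disulfide isomerase (0.87, SE 0.19, adjusted p = 0.0332), and Manf (1.10, SE 0.25, adjusted p = 0.0358) were higher in HRD1Alb than in WT liver, which is 2 of 12 against 7.09% of all genes, and all 12 targets had a positive log2 fold change, with a median of 0.84 against 0.04 over all genes. Leaving out refed HRD1Alb replicate 2, 11 and 12 of the 12 rose with refeeding in WT and HRD1Alb liver, and 8 were higher in refed HRD1Alb than in refed WT liver. Without replicate 1 of that group 11 and 10 rose, and in refed liver 5 were higher and 1 was lower in HRD1Alb liver. Calls over all genes rose as well in both fits that left out a refed HRD1Alb replicate, in every comparison. DESeq2, limma-trend and limma-voom called 10, 7 and 11 targets with refeeding in WT liver and 11, 10 and 3 in HRD1Alb liver. Between the refed genotypes they called 7, 3 and 0. The shares of all genes called by these tools are given with the members above. With any 1 sample of another group left out, all or nearly all of the 7 calls of refeeding in WT liver and both calls between refed genotypes were lost. Most of the 10 calls in HRD1Alb liver were lost without either fasted HRD1Alb replicate, and nearly all stayed without any single WT sample. In each of these fits most calls over all genes were lost. In fasted liver 0 of the 12 differed between genotypes by edgeR (2 at an unadjusted p under 0.05), with 1 by DESeq2, 0 by limma-trend and 1 by limma-voom, and edgeR called 1, lower, without refed HRD1Alb replicate 2.

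The ER stress response element is the sequence to which cleaved ATF6 binds together with NF-Y, and it was looked for in windows from 250 bases before to 50 after each RefSeq gene start (GRCm38.p6). Searched on both strands as CCAAT and CCACG with 9 free bases between them, it was found in 0.119% of 32851 windows. It was in 5 of the 10 ATF6 targets with a window (Hspa5, Hsp90b1, Calr, Pdia6 and Creld2), in the window of Syvn1, and in 1 of 8 XBP1 targets with a window, Dnajc3. A window was given for 6 of the 7 members, all but Atf6, and none of the 6 held this element, the related element of ATTGG and CCACG with 1 free base between them (0.0365% of windows), the core TGACGTG (2.01%) or the amino acid response element TTGCATCA bound by ATF4 (0.895%). In the second of these ATTGG is CCAAT read on the opposite strand, so its parts are shared with the first. Stretches around the match are shown for Syvn1, Hspa5 and Pdia6, whose values are given above, with the element in capitals and the sequence read 5′ to 3′ on the strand named.

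Syvn1, chr19:6046507-6046575, plus strand: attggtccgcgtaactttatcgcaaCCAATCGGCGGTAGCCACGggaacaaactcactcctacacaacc
Hspa5, chr2:34772000-34772068, plus strand: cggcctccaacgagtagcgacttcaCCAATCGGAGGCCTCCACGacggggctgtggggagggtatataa
Pdia6, chr12:17266466-17266534, plus strand: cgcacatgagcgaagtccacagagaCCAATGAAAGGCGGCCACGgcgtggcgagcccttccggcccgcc

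A match is a description of these letters, and binding was not measured in these samples.

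The listed targets of XBP1s include genes that serve translocation into and transport out of the ER, and others that serve folding and degradation. Of 12 in the list, 0 passed edgeR's test with refeeding in WT liver (7 at an unadjusted p under 0.05, 3 by DESeq2, 0 by limma-trend and 8 by limma-voom) and 3 rose in HRD1Alb liver, Spcs3 (0.92, SE 0.20, adjusted p = 0.0343), Srp19 (0.86, SE 0.20, adjusted p = 0.0375) and Sec61b (1.22, SE 0.29, adjusted p = 0.0409). DESeq2, limma-trend and limma-voom called 7, 3 and 0 in HRD1Alb liver. The value of Sec61b was 0.67 without refed HRD1Alb replicate 2, 1.62 without its replicate 1 and 0.66 with a correction for exon length fitted in each sample, and it passed the test in each. Their median log2 fold changes with refeeding were 0.62 and 0.89, against 0.00 and 0.02 over all genes. In WT liver 11 of 12 were higher in both refed samples, against 30.8% of all genes. In HRD1Alb liver 8 of 12 were, against 29.2% of all genes. When refed HRD1Alb replicate 2 was left out, 8 rose in WT and 10 in HRD1Alb liver, and when replicate 1 was, 8 rose in WT liver, and 4 rose and 2 fell in HRD1Alb liver. Calls over all genes rose as well in both of these fits, in every comparison. The 3 calls in HRD1Alb liver were lost without any single sample of the other groups, as were most calls over all genes. Between genotypes 0 were called in fasted and refed liver by edgeR with all samples (1 and 2 at an unadjusted p under 0.05), with 0 and 1 by DESeq2, 0 and 0 by limma-trend and 1 and 0 by limma-voom. Without refed HRD1Alb replicate 2 edgeR called 2 and 3, all higher. Without replicate 1 it called 2 higher and 1 lower in fasted liver, and 2 higher and 7 lower in refed liver, against 52.8% of all genes. Dnajb9, the co-chaperone ERdj4 and a defining XBP1s target, stood at 60.6 and 64.7 CPM in fasted WT, 53.2 and 44.9 CPM in fasted HRD1Alb, 179 and 118 CPM in refed WT, and 210 and 64.0 CPM in refed HRD1Alb liver. It was high in the refed samples except refed HRD1Alb replicate 2, which lay among the fasted WT samples. With all samples the log2 fold changes with refeeding of 1.25 (SE 0.49, adjusted p = 0.266) in WT and 1.48 (SE 0.50, adjusted p = 0.0967) in HRD1Alb liver did not pass the test. Leaving out either refed HRD1Alb replicate, the value in WT liver was again 1.25 and passed it (adjusted p = 0.00663 and 0.00680), while that in HRD1Alb liver was 2.09 (SE 0.23, adjusted p = 0.00187) without replicate 2 and 0.38 (SE 0.23, adjusted p = 0.209) without replicate 1.

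The targets of PERK and ATF4 include stress factors and amino acid enzymes. In refed liver 6 of 12 were higher in HRD1Alb than in WT samples and none was lower, against 7.09% of all genes called higher. The median log2 fold change was 1.80, against 0.04 over all genes. Without refed HRD1Alb replicate 2 the higher ones were 10 of 12, against 23.7% of all genes called in either direction, and without replicate 1, 7 were higher and 1 was lower, against 52.8%. DESeq2, limma-trend and limma-voom called 9, 6 and 5. Ddit3, which encodes the stress factor CHOP, stood at 6.66 and 5.62 CPM in fasted WT, 15.5 and 14.8 CPM in fasted HRD1Alb, 16.1 and 11.3 CPM in refed WT, and 251 and 241 CPM in refed HRD1Alb liver. The refed HRD1Alb samples were far above all others and close to each other. Ddit3 was higher in HRD1Alb liver in the fasted state (log2 fold change 1.30, SE 0.21, adjusted p = 0.0395, edgeR) and in the refed state (4.17, SE 0.23, adjusted p = 0.00126), and it rose with refeeding in WT (1.16, SE 0.21, adjusted p = 0.0379) and in HRD1Alb liver (4.02, SE 0.22, adjusted p = 0.00154). The difference between these fold changes was 2.86 (SE 0.29) with all samples and was not called (adjusted p = 0.116, edgeR). It was 2.89 without refed HRD1Alb replicate 2 and 2.83 without replicate 1 of that group.

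Nupr1, Trib3 and Asns, a stress-induced regulator, a pseudokinase and asparagine synthetase, were also higher in refed HRD1Alb than in refed WT liver, by 5.74 (SE 0.61), 4.47 (SE 0.52) and 3.47 (SE 0.43) on the log2 scale (adjusted p = 0.00820, 0.00895 and 0.00991). Trib3 stood at 241 and 76.7 CPM in refed HRD1Alb liver against 6.52 and 7.85 CPM in refed WT liver. Atf4 itself stood at 118 and 124 CPM in fasted WT, 120 and 154 CPM in fasted HRD1Alb, 136 and 182 CPM in refed WT, and 243 and 269 CPM in refed HRD1Alb liver. It rose with refeeding in HRD1Alb liver (0.90, SE 0.20, adjusted p = 0.0363, edgeR), a call lost with the correction for exon length (0.64, adjusted p = 0.0632). With all samples no other comparison of Atf4 passed edgeR's test. Between the refed genotypes its log2 fold change was 0.69 (SE 0.20, adjusted p = 0.0676). That value was 0.75 without refed HRD1Alb replicate 1 and 0.61 without replicate 2. In WT liver Ddit3 rose and Chac1 fell with refeeding (-2.52, SE 0.43, adjusted p = 0.0361) among the 12, while 4 rose in HRD1Alb liver, where DESeq2, limma-trend and limma-voom called 6, 3 and 2. One of the 4, Trib3 (1.85), stood at 0.80 without refed HRD1Alb replicate 1 and lost its call with the length correction (1.67, adjusted p = 0.0834). In fasted liver 1 of the 12, Ddit3, was called with all samples, against 0.921% of all genes called higher. Leaving out refed HRD1Alb replicate 2 raised the number of the 12 called, and that over all genes as well. The log2 fold change of Ddit3 in fasted liver was 1.30 with and without that replicate. Without either refed WT replicate most of the 6 calls in refed liver and some of the 4 of refeeding in HRD1Alb liver were lost. Most of those 4 were also lost without either fasted HRD1Alb replicate. The calls in fasted liver and of refeeding in WT liver were lost without any single sample outside the refed HRD1Alb group. In each of these fits most calls over all genes were lost as well. The calls of PERK-ATF4 targets stand beside an Eif2ak3 mRNA that passed the test in no comparison with all samples.

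**Figure D4:**
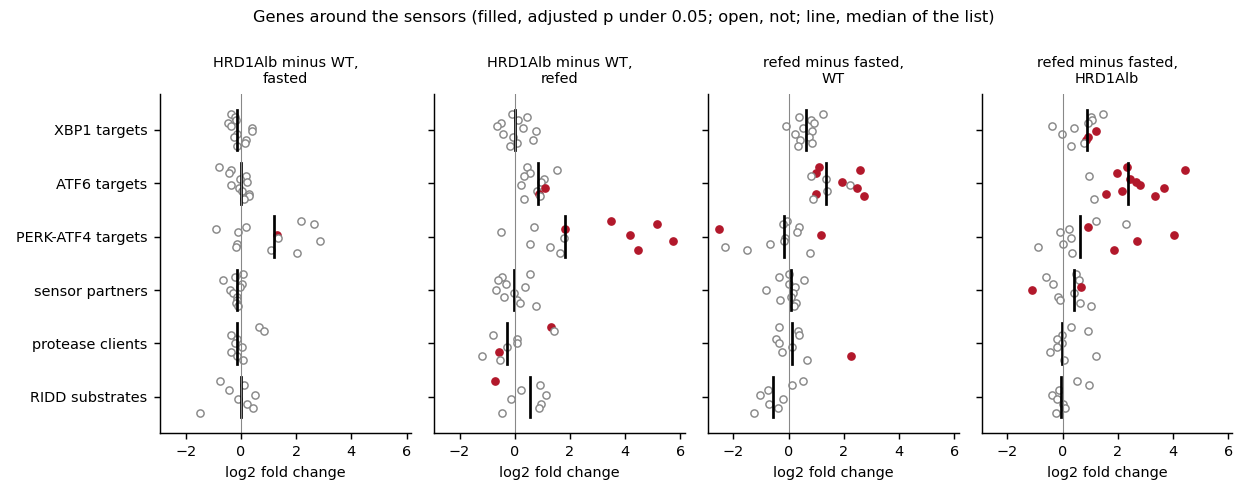
Log2 fold change (horizontal axes) of each tested gene in the 6 lists around the sensors in the 4 comparisons, filled where the adjusted p was under 0.05, with a vertical line at the median of each list. ATF6 targets lie right of 0 with refeeding in both genotypes, and PERK-ATF4 targets lie right of 0 in refed HRD1Alb against refed WT liver for 11 of the 12 genes.

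The next lists hold genes whose products act beside the sensors. Of 12 partners, which include the other eIF2α kinases, the tRNA ligase that rejoins Xbp1 mRNA and adaptors of IRE1α, Ern2 was below the filter, and among the 11 tested Eif2s1, which encodes eIF2α, rose (0.67, SE 0.17, adjusted p = 0.0449, edgeR) and Map3k5, which encodes the kinase ASK1, fell (-1.12, SE 0.28, adjusted p = 0.0491) with refeeding in HRD1Alb liver. Map3k5 stood at -0.82 (SE 0.25, adjusted p = 0.0561) without refed HRD1Alb replicate 2. In fasted liver, refed liver and with refeeding in WT liver edgeR called 0 partners with all samples (1, 4 and 2 at an unadjusted p under 0.05), with 1, 2 and 0 by DESeq2, 0 each by limma-trend and 1, 0 and 3 by limma-voom. Over all genes edgeR called 1.35%, 11.9% and 2.61% in these comparisons with all samples, and 10.5% with refeeding in HRD1Alb liver. In the last, DESeq2, limma-trend and limma-voom called 5, 3 and 0 partners. For these lists, shares of all genes at an unadjusted p under 0.05 and by the other tools are given with the members above. Leaving out either refed HRD1Alb replicate raised the number of partners called in all 4 comparisons, and that over all genes as well. The calls of Eif2s1 and Map3k5 were lost without any single sample outside the refed HRD1Alb group, as were most calls over all genes.

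The next 9 genes, called clients here, hold clients of the site-1 and site-2 proteases and also Scap, an escort of clients. Among the 9, Creb3, a membrane-bound transcription factor, stood at 62.3 and 58.5 CPM in fasted WT and 95.3 and 95.1 CPM in fasted HRD1Alb liver. In refed liver it stood at 49.7 and 45.0 CPM in WT and 100 and 137 CPM in HRD1Alb samples. All 4 HRD1Alb samples were above all 4 WT samples, and the difference passed the test in refed liver (1.32, SE 0.19, adjusted p = 0.0121, edgeR). Scap, which escorts the lipid regulators SREBP to these proteases, was lower in refed HRD1Alb liver (-0.57, SE 0.14, adjusted p = 0.0442), and with the correction for exon length the value was -0.35 and the call was lost (adjusted p = 0.190). Srebf1, which encodes one of those regulators, rose with refeeding in WT liver from 32.6 and 29.4 to 88.8 and 206 CPM (2.25, SE 0.37, adjusted p = 0.0336). In HRD1Alb liver it stood at 24.99 and 30.9 CPM fasted and at 66.6 and 61.9 CPM refed, and the change did not pass the test, and its interaction was not called. In the 4 comparisons, in the order used above, 0, 2, 1 and 0 clients were called by edgeR with all samples (2, 3, 2 and 2 at an unadjusted p under 0.05). Over all genes 1.35%, 11.9%, 2.61% and 10.5% were called. Leaving out either refed HRD1Alb replicate raised the number of clients called in each comparison, and that over all genes as well. DESeq2 called 0, 3, 1 and 2 of them, limma-trend 0, 2, 1 and 0 and limma-voom 2, 1, 4 and 0. Leaving out 1 sample outside the refed HRD1Alb group, at least 1 of the 2 calls in refed liver and the call with refeeding in WT liver were lost, as were most calls over all genes.

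Of 8 substrates of the broader RNA decay by IRE1α, called RIDD, edgeR called 0 in fasted liver and 0 with refeeding in WT and in HRD1Alb liver with all samples. In these 3 comparisons 2, 3 and 1 had an unadjusted p under 0.05, DESeq2 called 1, 1 and 0, limma-trend 0 each and limma-voom 2, 3 and 0. Over all genes edgeR called 1.35%, 2.61% and 10.5% in these comparisons. Leaving out either refed HRD1Alb replicate raised the number of substrates called in fasted liver and with refeeding in WT liver. With refeeding in HRD1Alb liver only leaving out replicate 1 did. Calls over all genes rose in each of these fits. In refed HRD1Alb against refed WT liver the median log2 fold change of the list was 0.55 with all samples and 0.18 without refed HRD1Alb replicate 2.

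Across the 8 samples, the tested genes whose log2 CPM was most like that of each member were named as a description, among 11927 genes with a mean of at least 1 CPM. For Ern1 these were Ankhd1 (Pearson's r 0.997), Phkg2 (0.993) and Atf6 (0.993), and for Atf6 they were Ankhd1 (0.996), Wnk1 (0.996) and Gsk3b (0.995). For Xbp1 they were Kdelc2 (0.994), Chac2 (0.986) and Uba2 (0.982), and for Atf6b they were Pwp2 (0.994), Hist2h3c1 (0.993) and Ints3 (0.992). Eif2ak3 was most like Tbx3 (0.973), Tmem138 (0.973) and Plekha6 (0.964), Mbtps1 most like Smg6, Rnf152 and Dyrk1a (0.994 each), and Mbtps2 most like Tspyl1 (0.986), Pdzd8 (0.986) and Qk (0.977). The points share the libraries, with refed HRD1Alb replicate 2 the lowest for 5 of the members, so these values follow that sample as well as the groups.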

How the data were processed

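The authors deposited read counts per gene symbol, as whole numbers without normalization, 1 file for each of 8 samples. By the study's methods each sample was sequenced on its own NextSeq lane and counted with ERANGE, while the submitters' processing notes name cutadapt, STAR, HTSeq, DESeq2 and the build mm10. Annotation, strand setting and versions are not given in the sources used here. Groups came from the labels.

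The counts went into edgeR 4.0.16 under R 4.3.3. Its function filterByExpr (minimum count 10, minimum total 15) kept 14328 genes. TMM-normalized counts entered 1 quasi-likelihood model with 4 groups, with Benjamini-Hochberg adjustment and calls at 0.05. SE was taken from the F statistic. With 2 samples a group an exact permutation test cannot give a p below 0.333, so the calls rest on spread shared across genes. Exon lengths and positions came from GENCODE on GRCm38, and promoter windows from RefSeq. The members, target lists and marker lists were chosen with earlier results of these data known. Named genes were the members, Syvn1, Dnajb9, Hspa5, Atf4, Ddit3, up to 4 genes of smallest adjusted p per list and comparison, and the 3 genes most like each member. Alternatives were RLE normalization, DESeq2 1.42.0, limma 3.58.1 (trend, and voom with sample weights), no filter or 10 counts in every sample, the 4 samples of a comparison only, the replicate number as a block, a correction for exon length, and each sample left out. Steps were tested on simulated data. The calls of 1 gene of the list of RIDD substrates are not reported here.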

Additional observations from a re-analysis of the deposited data

Results flagged for a closer look

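Among the members and named genes, some around the sensors went one way in every sample of one comparison and the other way in every sample of its counterpart. None of them passed the interaction test (edgeR, adjusted p from 0.544 to 0.583), and none was a member. The genes given below had been named for a small adjusted p in these same data. The share of all genes with such a turn was not counted, while 58.7% to 64.9% of all genes separated in any 1 comparison. Between genotypes, Calr was lower in both fasted HRD1Alb samples (log2 fold change -0.81) and higher in both refed ones (0.45), an interaction of 1.25. Creld2 went from -0.36 to 1.52, an interaction of 1.88, Dnajb11 from -0.43 to 0.56, an interaction of 0.99, and Chac1 from -0.90 to 1.83, an interaction of 2.74. With refeeding, Trib3 was lower in both refed WT samples (-1.51) and higher in both refed HRD1Alb samples (1.85), an interaction of 3.37, and Creb3 went from -0.35 to 0.32, an interaction of 0.67. The groups hold 2 samples each, so no group was tested for a deviating sample in single values.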

How the results depend on the processing

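Each count below is of members or of genes of the 6 lists around the sensors called at an adjusted p under 0.05, and the order of comparisons is fasted genotype, refed genotype, refeeding in WT, refeeding in HRD1Alb and interaction. With all samples the fit called 0, 0, 0, 2 and 0 of 7 members and 1, 11, 10, 19 and 0 of 64 list genes. RLE normalization and a minimum of 10 counts in every sample kept all of these counts within 1.5 times. DESeq2 called 2 members with refeeding in WT and 8, 24, 19, 31 and 5 list genes. limma-trend called 3 list genes in fasted liver. limma-voom with sample weights called 3 members with refeeding in WT and 0 in HRD1Alb liver, and 14, 6, 33 and 5 list genes in the first 4 comparisons. Without the filter on low counts 3 list genes were called in fasted liver and 1 in the interaction. Fits of the 4 samples of a comparison called 1 member in fasted liver, 3 with refeeding in WT and 0 in HRD1Alb liver, and 12, 0, 25 and 0 list genes. Over all genes these fits called 2033, 0, 1882 and 0. The correction for exon length called 1 member with refeeding in WT and 8 list genes in fasted liver.

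The replicate numbers do not pair the samples: deviations of same-numbered samples correlated with r from 0.0161 to 0.179 (mean 0.0689) over 6 pairs of groups. With the number as a block 2 list genes were called in fasted liver, and with block and length correction 3, and no count of members moved. With 1 sample left out at a time, members called ranged from 0 to 2, 0 to 5, 0 to 3, 0 to 7 and 0 to 4, and list genes from 0 to 15, 1 to 42, 0 to 31, 2 to 38 and 0 to 23. The highest counts came without a refed HRD1Alb replicate. Without a sample of any other group, the 64 list genes gave fewer calls in the first 4 comparisons, and most calls over all genes were lost too.

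Some directions turned, and the cause was not tested. In refed liver the genotype difference of Atf6b was -0.11 with the length correction, -0.13 with correction and block and from -0.10 to 0.22 with 1 sample left out. That of Mbtps2 was 0.19 with the correction, 0.18 with the block too and from -0.67 to 0.37 with 1 sample left out, that of Eif2ak3 ranged from -0.96 to 0.091 and that of Dnajb9 from -1.22 to 0.49. With refeeding in HRD1Alb liver, Ern1 stood at 0.056 with the correction, and from -2.20 to 0.76 with 1 sample left out. Atf6 stood at 0.067, at 0.051 with the block, and from -0.87 to 0.27, Eif2ak3 from -1.02 to 0.038 and Mbtps2 from -0.95 to 0.089. These lowest values came without refed HRD1Alb replicate 1 and the highest without its replicate 2. In the interaction, Xbp1 was -0.062 with the correction, with or without the block, and from -0.12 to 0.16 with 1 sample left out, and Mbtps1 was 0.055 and 0.054. With 1 sample left out Ern1 ranged from -2.61 to 0.35, Atf6 from -1.04 to 0.10, Mbtps2 from -0.48 to 0.56, Syvn1 from -0.12 to 1.66 and Dnajb9 from -0.86 to 0.85. Values inside these ranges that also turned were 0.21 for Dnajb9 in refed liver without refed WT replicate 1, and -0.0047 for Xbp1 without refed HRD1Alb replicate 1 and -0.04 for Dnajb9 without refed WT replicate 2 in the interaction. Atf4 ranged from -0.021 to 0.34 in fasted liver.

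At these depths 3 counts correspond to 0.0611 to 0.0746 CPM before normalization, far below every member in every sample. Each group has 2 samples, and how much each source of spread limits the calls was not tested.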
